A study of Mus musculus with 3 samples.

Results

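Genes that move or store zinc and magnesium were followed in the choroid plexus epithelium (CPE), the cell layer that makes cerebrospinal fluid. They were chosen by name on an Agilent whole-genome mouse array, as every non-control probe for an Slc39, Slc30 or Slc41 gene, for Mt1 to Mt4, for Mtf1 or Mtf2, or for Cnnm1 to Cnnm4. This gave 61 probes for 37 genes, of 41174 probes with 27845 gene names in all. The Slc39 family had 14 genes and 19 probes, the Slc30 family 10 genes and 17 probes, the metallothioneins 4 genes and 6 probes, the Mtf genes 7 probes, the Slc41 family 3 genes and 4 probes, and the Cnnm family 4 genes and 8 probes.

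The samples were CPE from 3 healthy adult C57BL/6 mice, with no genetic change or treatment named, laser dissected from the lateral ventricles in frozen brain sections. Each mouse had 1 array of 2 dyes, with its amplified CPE RNA in red (Cy5) and 1 common reference RNA in green (Cy3), taken from the eye, namely its choroid and retinal pigment epithelium (RPE). The dyes were not swapped, so a preference of a probe for a dye and a difference between the tissues cannot be told apart, and the reference adds no spread of its own between animals. Each array lay on a slide of its own, and the mice form 1 group.

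Zinc is bound by very many enzymes and transcription factors, and cells keep free zinc low. Slc39 proteins (ZIP) bring zinc into the cytosol from outside the cell or from organelles, and Slc30 proteins (ZnT) move it out of the cytosol. Metallothioneins are small cysteine-rich proteins that bind zinc and copper, and Mtf1 is the zinc-sensing transcription factor that switches on Mt1, Mt2 and Slc30a1 through metal response elements. Slc41 and Cnnm proteins are magnesium transporters or regulators of magnesium transport. The choroid plexus exchanges such ions between blood and cerebrospinal fluid.

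The metallothionein genes lie side by side, and the largest changes among the members were found there. For this reason the 250 bases before the RefSeq start of Mt1, Mt2 and Mt3 are shown, with those of Slc30a1 as another gene of Mtf1, all from RefSeq on build GRCm38.p6 and read 5′ to 3′ on the strand of the gene. Capitals mark matches to the core of the metal response element, searched as TGCACNC and TGCGCNC on both strands. The windows are chr8:94178839-94179088 for Mt1, chr8:94172368-94172617 for Mt2, chr8:94152357-94152606 for Mt3 and chr1:191906531-191906780 for Slc30a1, each on the plus strand.
Mt1: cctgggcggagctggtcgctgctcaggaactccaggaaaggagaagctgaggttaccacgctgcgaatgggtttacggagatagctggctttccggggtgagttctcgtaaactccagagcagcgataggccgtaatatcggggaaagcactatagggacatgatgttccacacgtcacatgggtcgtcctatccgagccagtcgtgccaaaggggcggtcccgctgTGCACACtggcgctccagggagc
Mt2: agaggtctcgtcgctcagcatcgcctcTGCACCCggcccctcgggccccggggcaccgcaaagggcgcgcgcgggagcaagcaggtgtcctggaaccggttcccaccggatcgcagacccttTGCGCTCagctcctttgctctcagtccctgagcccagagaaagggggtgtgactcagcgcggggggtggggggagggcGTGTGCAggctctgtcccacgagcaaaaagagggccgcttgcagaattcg
Mt3: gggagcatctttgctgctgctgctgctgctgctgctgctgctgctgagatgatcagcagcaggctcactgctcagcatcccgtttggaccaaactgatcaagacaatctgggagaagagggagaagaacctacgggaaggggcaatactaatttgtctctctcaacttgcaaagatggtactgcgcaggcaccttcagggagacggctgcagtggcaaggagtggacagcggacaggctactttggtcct
Slc30a1: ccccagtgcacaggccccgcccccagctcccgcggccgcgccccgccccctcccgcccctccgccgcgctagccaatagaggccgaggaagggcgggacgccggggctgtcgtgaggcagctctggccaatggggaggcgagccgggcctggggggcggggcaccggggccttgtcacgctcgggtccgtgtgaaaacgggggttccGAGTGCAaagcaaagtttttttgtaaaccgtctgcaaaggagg
Mt2 held 3 matches, which began 223, 128 and 50 bases before the start. Mt1 held 1 match, at 23 bases, and Slc30a1 held 1, at 43 bases. No match to these letters was in the window of Mt3, and Mt4 held 1. Of 32851 promoters of the same length, 21.4% held at least 1 match and 1.26% held 3 or more. Of the 37 genes, 33 had a promoter entry, with 39 promoters in all, and 20 of these (51.3%) held a match. A match is a run of letters and not a site shown to be bound, and base composition was not matched in this count. Only the 250 bases before the RefSeq start were searched, so these counts need not hold all elements of a gene, and other start sites were not examined.

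Not all arrays were equally bright over their background. Well above it in the CPE channel were 24079, 18933 and 35233 probes in mice 1, 2 and 3, and 48, 40 and 57 of the 61 member probes. In the reference channel 52, 49 and 55 member probes were. On all 3 arrays, 40 member probes (65.6%) stood above background in the CPE channel, beside 44.9% of all probes. No member spot was saturated or marked as an outlier. Of 9 CPE markers on the array, all were in the top 10% of the CPE channel and 8 were higher than in the reference. The exception was Otx2, with a log2 ratio of 0.14 ± 0.22 (SE), which is also a gene of the RPE. Of 9 photoreceptor markers, all were well above background in CPE on all 3 arrays, and all were lower than in the reference. Markers of the labelled tissue were thus among the brightest probes, and retinal markers were measurable beside them.

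Each probe was ranked over all probes by its mean log2 intensity in the CPE channel, and split at the 10th, 50th and 90th percentile into very low, low, moderate and high expression. A total of 10 member probes were in the high class, 34 in the moderate, 13 in the low and 4 in the very low class. The 10 high probes were 1 each for Mt1, Mt2 and Mt3, for the importers Slc39a4, Slc39a7, Slc39a12 and Slc39a13, and for the exporters Slc30a4, Slc30a5 and Slc30a9. When only the 18475 probes above background in CPE on all arrays were ranked, 5 of the probes remained above the 90th percentile. Ranks compare probes and do not order the transcripts of different genes.

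The ratio of CPE over reference was tested with limma for every probe that 1 channel or both had measured well above background on each of the 3 arrays. Of 61 member probes, 44 were tested, and 10 of these passed an adjusted p under 0.05 with at least a 2-fold change (22.7%, beside 17.3% of all 25841 tested probes). Higher in CPE were 5 probes, where 7.09% of all tested probes were, for Mt3, Cnnm2, Slc39a13 (2 probes) and Slc30a4. Lower were 5 probes, where 10.2% of all were, for Mt1, Mt2, Slc39a8 and Mtf2 (2 probes). With each gene represented by its brightest probe over both channels, 30 of 37 genes were tested, 4 were higher and 4 were lower. At any fold, 15 member probes were higher and 11 lower at an adjusted p under 0.05, beside 16.9% and 22.3% of all tested probes. Calls under 2-fold were less firm. Without mouse 1, 5 of the 15 higher probes kept an adjusted p under 0.05, without mouse 2 9 did, and after median centring 4 of the 11 lower probes did. Of the 26, 9 kept it in every alternative run, namely those of Mt1, Mt2, Mt3, Cnnm2, Slc39a8, Slc39a13 (2 probes) and Slc30a4 past the threshold, and 1 probe of Cnnm1. That Cnnm1 probe stood above background in CPE on 1 array only, so the run that asked for both channels above background did not include it. The median log2 ratio of the tested members was 0.14, and that of all tested probes was -0.04.

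The split between higher and lower depended on the normalization within arrays. Loess gave 5 higher and 5 lower. Centring each array on its median instead gave 15 higher and 4 lower, with the median of all tested probes at 0.083. Ratios are therefore best read beside those medians, and the members that passed under loess, centring and the scanner software's own log ratio were Mt1, Mt2, Mt3, Cnnm2, Slc39a13, Slc39a8 and Slc30a4.

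**Figure D1:**
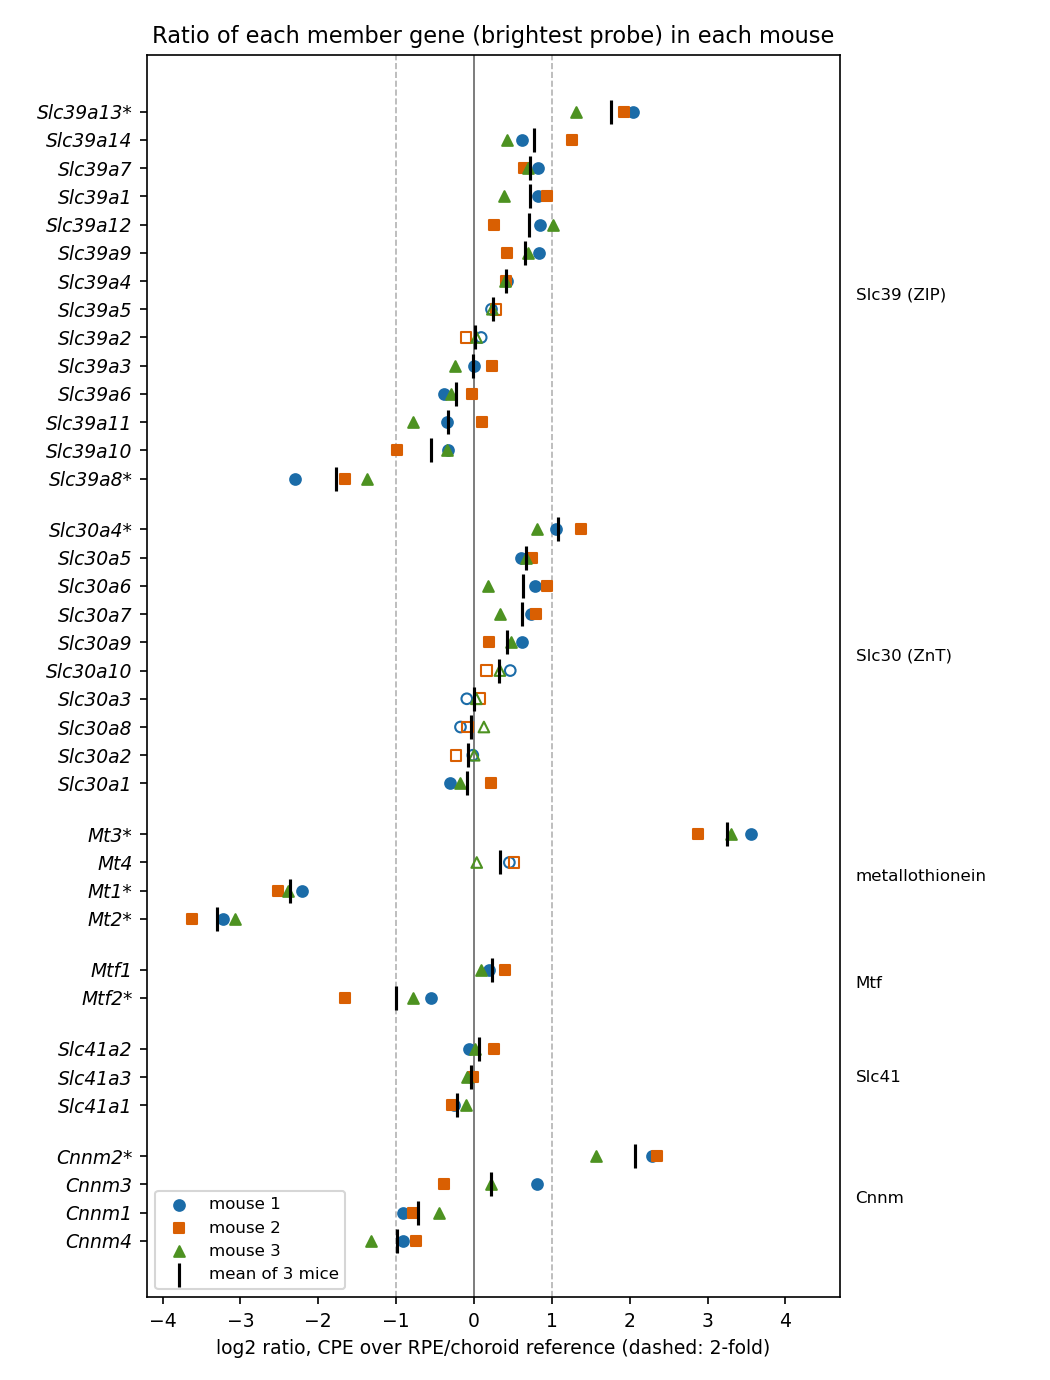
Log2 ratio of CPE over the RPE/choroid reference (x axis) for the brightest probe of each of the 37 member genes (y axis), grouped by family. Symbols are the 3 mice and black bars their mean, open symbols are genes that were not tested, dashed lines mark 2-fold, and asterisks mark the 8 genes past the threshold, with Mt3 at 3.25 and Mt2 at -3.31 as the extremes.

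Among the metallothioneins, Mt3 was higher in CPE and Mt1 and Mt2 were lower, in all 3 mice. Mt3 is the form known from the brain, while Mt1 and Mt2 are made in most tissues and rise with metals, glucocorticoids and stress. All 3 genes ranked above the 90th percentile in both channels.

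The log2 level of Mt3 in the CPE channel was 15.0, 14.3 and 14.9 in mice 1, 2 and 3, and in the reference channel 10.3, 10.7 and 10.8. The log2 ratio of Mt3 was 3.56, 2.87 and 3.30, with a mean of 3.25 ± 0.18 (SE, n = 3 mice), a 9.48-fold higher signal (limma, adjusted p = 2.1e-05). All 3 ratios were far above 0. Mt3 ranked at the 99.6th percentile in CPE and at 92.7 in the reference. The levels of the channels carry an offset between the dyes, with a median over all probes of -0.20, -0.47 and 0.80 (CPE minus reference) on the 3 arrays before loess, so here and below the channels are compared through the ratio, which is made after background correction and loess, and not by their levels.

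The log2 level of Mt2 was 13.5, 13.1 and 13.7 in CPE and 15.4, 15.7 and 15.9 in the reference. The log2 ratio of Mt2 was -3.23, -3.62 and -3.07, with a mean of -3.31 ± 0.17 (SE), a 9.88-fold lower signal (limma, adjusted p = 1.58e-05). Mt2 ranked at the 98.6th percentile of CPE. The log2 level of Mt1 was 13.1, 12.2 and 12.4 in CPE and 13.9, 13.9 and 13.8 in the reference. The log2 ratio of Mt1 was -2.20, -2.51 and -2.39, with a mean of -2.37 ± 0.15 (SE), 5.16-fold lower (limma, adjusted p = 4.14e-05), and Mt1 ranked at 97.1 in CPE. Both genes were lower in every mouse, with mouse 2 the lowest for both.

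A second Mt1 probe, 167 bases nearer the 5′ end on the genome, was much dimmer, at the 52.8th percentile. Its log2 ratios were -0.86, -0.67 and -0.84, with a mean of -0.79 ± 0.15 (SE, limma, adjusted p = 0.00543), which is the same direction but under 2-fold. With the scanner software's log ratio it was at -1.22, and after median centring at -0.70 (adjusted p = 0.093). Mt4, a form known from stratified squamous epithelia, was not tested. Its brighter probe had log2 levels of 7.56, 7.46 and 8.03 in CPE and ranked at 46.6, and its other probe ranked at 4.98. Neither Mt4 probe stood above background on every array of either channel.

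In the mm8 coordinates of the array, the metallothionein probes span 41.9 kb of chromosome 8, from 97027368 to 97069299, in the order Mt4, Mt3, Mt2, Mt1. The probes of Mt4 and Mt3 lie 15234 bases apart, those of Mt3 and Mt2 19385, and those of Mt2 and Mt1 6414. Within each array the log2 ratio of Mt3 exceeded that of Mt2 by 6.79, 6.49 and 6.37, with a mean of 6.55 ± 0.21 (SD, n = 3). It exceeded that of Mt1 by 5.76, 5.38 and 5.69, with a mean of 5.61 ± 0.20 (SD). These differences are the same under any shift that moves a whole array. Whether the probes of these similar transcripts bind more than 1 of them was not tested.

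**Figure D2:**
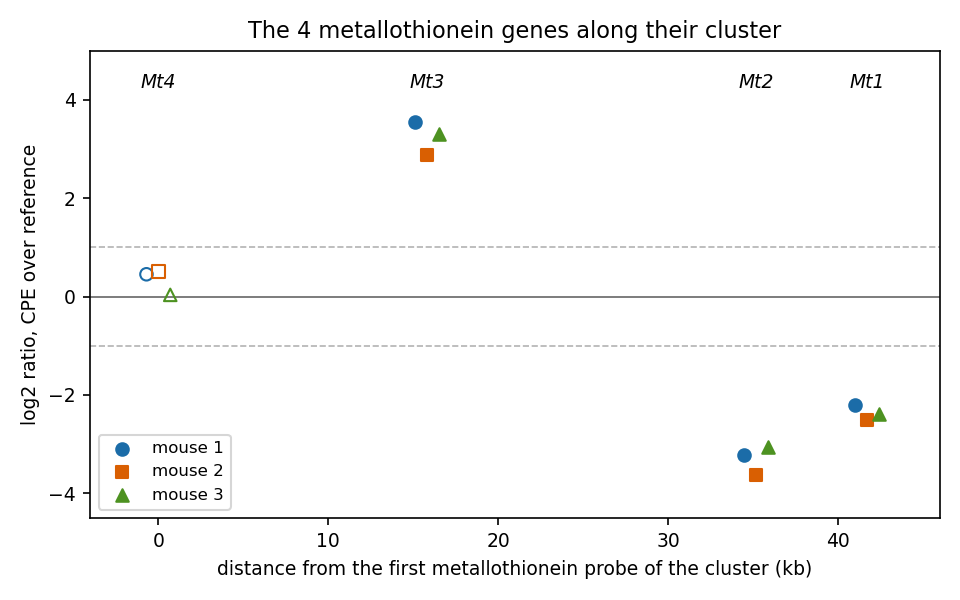
Log2 ratio of CPE over reference (y axis) for the brightest probe of each metallothionein gene in the 3 mice, against its distance in kb from the first metallothionein probe of the cluster (x axis). Mt3 lay between 2.87 and 3.56, Mt2 and Mt1 between -3.62 and -2.20, and Mt4, drawn open, was not tested; points of 1 gene are set slightly apart along x so that they can be seen.

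Markers of other cell types were compared between the channels. Of 8 astrocyte markers, 1 was higher in CPE and 4 were lower, and their summed intensity was 8181 to 12483 in CPE and 19755 to 23752 in the reference. Of 7 neuron markers, 5 were lower, with sums of 2934 to 4495 and 14030 to 17871. The median log2 ratio was -0.98 for the astrocyte and -2.82 for the neuron list. The sums are of levels, with the dye offset in them. Of 10 RPE and melanocyte markers, 9 were lower in CPE, with sums of 26096 to 30871 and 192298 to 222512. Tyr, the pigment enzyme tyrosinase, was well above background on no CPE array. Of 6 stroma markers 5 were lower, with sums of 25551 to 35479 and 85207 to 97228, and of 6 macrophage markers 4 were lower, with sums of 11113 to 11941 and 39148 to 47132. Of 4 red blood cell markers 3 were lower, with sums of 29025 to 49917 and 93008 to 104623. Of the astrocyte markers, Aldh1l1 was higher (log2 ratio 1.01), and Gfap (0.44), Slc1a2 (-0.69) and Slc1a3 (-0.57) did not pass. Of the neuron markers, Tubb3 (0.14) and Slc17a7 (-0.66) did not pass. In the RPE, stroma, macrophage and red blood cell lists, Best1 (0.46), Pdgfrb (0.62), Aif1 (-0.46), Cd14 (-0.20) and Slc4a1 (0.17) did not pass. Most markers of the neuron, RPE, stroma, macrophage and red blood cell lists, and all 9 photoreceptor markers, were thus lower in CPE. Of 4 tested oligodendrocyte markers 1 was higher and none lower, and of 6 endothelium markers none passed the threshold. Lower under 2-fold at an adjusted p under 0.05 (limma) were Slc1a3, Slc17a7 and Cldn5. Higher in the same way were Pdgfrb, Cdh5, Pecam1 and Mobp. The part of any of these lists in the metallothionein ratios was not tested. In such bulk samples, fewer cells of a type and less RNA per cell cannot be told apart.

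A list of genes of the glucocorticoid and stress responses, under which metallothioneins rise, was also counted. Of 11 on the array, 9 were tested, with a median log2 ratio of -0.41, the value of the glucocorticoid receptor Nr3c1. In CPE 1 was higher and 3 were lower, where 7.09% and 10.2% of all tested probes were. The 4 genes, named here after their values were seen, were Hmox1 (heme oxygenase, 1.26 ± 0.22, SE), Hspa1a (-2.50 ± 0.16) and Hspa1b (-1.12 ± 0.19), both inducible heat shock proteins, and Stat3 (-1.19 ± 0.22), a cytokine signalling factor. Of the glucocorticoid-induced genes, Fkbp5 was at -0.30 (limma, adjusted p = 0.19) and did not pass. Tsc22d3 was lower at -0.77 (adjusted p = 0.0126) but under 2-fold.

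Of the Mtf genes, Mtf1 was in the moderate class and did not pass the test. Its brightest probe had log2 levels of 10.6, 10.6 and 10.3 in CPE and 9.496, 9.89 and 9.30 in the reference, and ranked at 87.9. The log2 ratio was 0.20, 0.40 and 0.09, with a mean of 0.23 ± 0.15 (SE, limma, adjusted p = 0.285). A probe 44144 bases upstream gave 0.34 ± 0.17, and the remaining Mtf1 probe, at percentile 9.14, was not tested.

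Mtf2, which despite its name is known as a Polycomb-like chromatin protein, was lower at 2 of its 4 tested probes. The brightest gave log2 ratios of -0.56, -1.66 and -0.79, with a mean of -1.002 ± 0.23 (SE, limma, adjusted p = 0.0111). Mouse 2 set this call, and without it the mean was -0.67. A dimmer probe gave -0.997, -1.51 and -1.56, with a mean of -1.36 ± 0.17 (adjusted p = 0.000895), which held without any 1 mouse but was -0.93 (adjusted p = 0.057) after median centring. The probe nearest the 3′ end gave -0.36, 0.08 and -0.66, with a mean of -0.31 ± 0.18. The probe farthest upstream, at 27822 bases from it, gave -0.40, -1.63 and -0.80. It averaged -0.94 and was under 2-fold. The Mtf2 probes thus differed among themselves.

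Of the 14 tested probes of the zinc importers (Slc39), 7 were higher and 2 lower at any fold, and 2 higher and 1 lower past the threshold. The shares over all tested probes were 16.9% and 22.3% at any fold, and 7.09% and 10.2% past the threshold. None of these 9 probes changed sign under the alternatives run. The 2 past it and higher were both for Slc39a13. Slc39a8 was lower at 1 of its probes. Slc39a2 and Slc39a5 were not tested.

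Slc39a13 (ZIP13) is known as a zinc transporter of intracellular membranes that connective tissue needs. Its brightest probe, at mm8 chr2:90862818-90862877, had log2 levels of 12.02, 11.9 and 11.2 in CPE and 9.05, 9.58 and 9.22 in the reference. The log2 ratio was 2.05, 1.93 and 1.30, with a mean of 1.76 ± 0.19 (SE), 3.39-fold higher (limma, adjusted p = 0.000397). The gene ranked at 94.6 in CPE and 81.6 in the reference. A probe 985 bases upstream gave 1.87, 0.91 and 1.28, with a mean of 1.35 ± 0.21 (adjusted p = 0.00199). Both probes were higher in every mouse, and the lowest value came from a different mouse at each.

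Slc39a8 (ZIP8) carries zinc, manganese and cadmium. Its brightest probe, at mm8 chr3:135825592-135825651, had log2 levels of 7.78, 8.24 and 8.11 in CPE and 9.53, 9.90 and 8.16 in the reference. The log2 ratio was -2.30, -1.66 and -1.37, with a mean of -1.78 ± 0.20 (SE), 3.43-fold lower (limma, adjusted p = 0.000537). It ranked at 57.6 in CPE and 80.6 in the reference. A probe 1267 bases upstream gave -0.82, -0.72 and 0.07, with a mean of -0.49 ± 0.21 (adjusted p = 0.0967), and a probe 28704 bases upstream was too dim to be tested.

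The other importers of the high class did not pass the 2-fold limit after loess. After median centring they did, with Slc39a7 at 1.47, Slc39a4 at 1.15 and Slc39a12 at 1.32 on the log2 scale. Slc39a7 (ZIP7), which releases zinc from the endoplasmic reticulum, had log2 levels of 12.9, 12.5 and 12.8 in CPE and ratios of 0.82, 0.64 and 0.69, with a mean of 0.71 ± 0.15 (SE, adjusted p = 0.00805). Slc39a4 (ZIP4), the importer of dietary zinc in the gut, had levels of 12.5, 12.2 and 12.3 and ratios of 0.42, 0.41 and 0.39, with a mean of 0.41 ± 0.15 (adjusted p = 0.0617). The SD of its ratio, 0.016, was the smallest of the tested members. Slc39a12 (ZIP12), a zinc importer known from brain, had levels of 11.7, 10.7 and 11.9 and ratios of 0.85, 0.26 and 1.02, with a mean of 0.71 ± 0.19 (adjusted p = 0.0213). Mouse 2 was the lowest in both measures, and its rank of 90.4 was just inside the high class.

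Slc39a1, Slc39a9 and Slc39a14, which bring zinc and, for Slc39a14, also manganese and iron across membranes, were higher by less than 2-fold, at 0.71, 0.65 and 0.77 on the log2 scale, and passed the 2-fold limit after median centring, at 1.32, 1.16 and 1.19. Slc39a10 had ratios of -0.34, -0.98 and -0.34, with a mean of -0.55 (adjusted p = 0.0466). It kept an adjusted p under 0.05 in 2 of 9 alternatives, and was at -0.15 (adjusted p = 0.778) after median centring and at -0.34 (adjusted p = 0.262) without mouse 2. Slc39a3, Slc39a6 and Slc39a11 had values of -0.01, -0.23 and -0.34 that did not pass the test and changed sign after median centring. A second Slc39a1 probe lies on the opposite strand to the gene and was not tested.

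**Figure D3:**
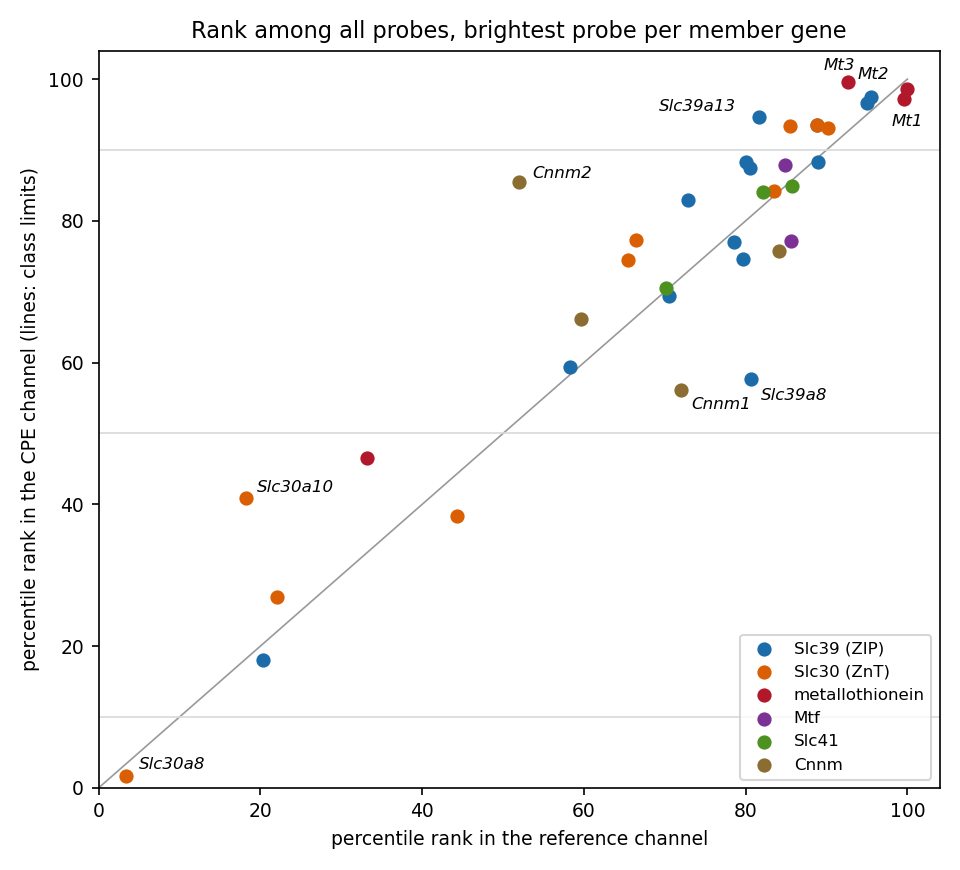
Percentile rank over all probes in the CPE channel (y axis) against that in the reference channel (x axis) for the brightest probe of each member gene, coloured by family, with horizontal lines at the class limits of 10, 50 and 90 and a diagonal of equal rank. Most genes lie near the diagonal, while Cnnm2 (85.5 in CPE, 52.0 in the reference) and Slc39a8 (57.6 and 80.6) lie far from it on opposite sides. Slc30a10 (40.9 and 18.2), too dim to be tested, and Cnnm1 (56.1 and 72.0), near the background in CPE, also lie off it.

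Of the 11 tested probes of the zinc exporters (Slc30), 5 were higher at any fold and none was lower in the limma test. All tested probes gave 16.9% and 22.3%. At an unadjusted p under 0.05 these counts were 7 and 1, beside 21.3% and 26.9% of all tested probes. None of the 5 changed sign under the alternatives run. The higher probes were for Slc30a4, Slc30a5 (2 probes), Slc30a6 and Slc30a7, which are known to fill endosomes, vesicles or the Golgi and early secretory pathway with zinc. Past the threshold was 1 of them, Slc30a4. After median centring Slc30a5 (1.34 and 1.16), Slc30a6 (1.02) and Slc30a9 (1.06) passed it too.

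Slc30a4 (ZnT4), which in the mammary gland loads zinc into milk, had log2 levels of 11.5, 11.7 and 11.1 in CPE and 9.47, 9.90 and 9.51 in the reference at mm8 chr2:122372980-122373039. The log2 ratio was 1.05, 1.37 and 0.81, with a mean of 1.08 ± 0.17 (SE), 2.11-fold higher (limma, adjusted p = 0.00226). Without mouse 2 the mean was 0.93, under 2-fold. It ranked at 93.4 in CPE and 85.5 in the reference.

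Slc30a5 (ZnT5), which pairs with Slc30a6 in the early secretory pathway, had log2 levels of 11.6, 11.7 and 11.1 in CPE at its brightest probe. The ratios were 0.60, 0.74 and 0.67, with a mean of 0.67 ± 0.15 (SE, adjusted p = 0.0103). A probe overlapping it gave 0.63, 1.18 and 0.41. A probe 17594 bases upstream, well above background in CPE on 1 array only, ranked at 20.5. It gave -0.38 (adjusted p = 0.0984), or -1.495 (adjusted p = 0.0292) with the scanner software's log ratio. The probes of this gene thus differed in sign, but the CPE signal of that probe was near the background. Slc30a6 and Slc30a7 had means of 0.63 and 0.62, each with its lowest value in mouse 3, at 0.18 and 0.34. Neither kept an adjusted p under 0.05 without mouse 1 or without mouse 2.

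Slc30a9, known as a nuclear receptor coactivator and a mitochondrial zinc transporter, had log2 levels of 11.6, 10.9 and 11.5 in CPE. The ratios were 0.62, 0.19 and 0.48, with a mean of 0.43 ± 0.16 (SE, adjusted p = 0.0713). Another probe gave 0.89, -1.34 and 0.50, so that mouse 2 went against the other mice. Its SD of 1.19 was the largest among the tested members, and its levels had an SD of 1.45 in CPE and 0.37 in the reference.

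Slc30a1 (ZnT1), the exporter of the plasma membrane and a gene of Mtf1, ranked at 84.2. Its log2 ratios were -0.31, 0.22 and -0.18, with a mean of -0.09 ± 0.17 (SE, adjusted p = 0.712), and a probe 3167 bases upstream gave 0.74, 1.00 and -0.14. Mouse 2 was above 0 and the others below it at the first probe. Slc30a2, Slc30a3 of synaptic vesicles, Slc30a8 of insulin granules and Slc30a10, a manganese exporter, were not tested. Slc30a8 stood above background on no array in either channel, so it was not detectable at the signal of these arrays.

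Of the magnesium genes, Cnnm2 was higher in CPE. Cnnm2 is known from the basolateral membrane of the distal convoluted tubule of the kidney, and its loss of function causes low blood magnesium. Its probe, at mm8 chr19:46931680-46931739, had log2 levels of 10.5, 10.3 and 9.75 in CPE and 7.73, 8.13 and 7.64 in the reference. The log2 ratio was 2.28, 2.35 and 1.56, with a mean of 2.07 ± 0.20 (SE), 4.19-fold higher (limma, adjusted p = 0.000222). All mice were above 2-fold, with mouse 3 the lowest. The gene was in the moderate class, at 85.5.

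No other Cnnm gene passed the threshold after loess, and the tested probes of Cnnm4 and Cnnm1 were lower. Cnnm4, known from the retina and the teeth, had ratios of -0.91, -0.75 and -1.32, with a mean of -0.99 ± 0.17 (SE, adjusted p = 0.00341), just under the 2-fold limit, which it passed without mouse 1 (-1.03) or mouse 2 (-1.12) and with the scanner software's log ratio (-1.09). After median centring Cnnm4 was at -0.50 (adjusted p = 0.291) and no longer passed at any fold. These values rest on 1 probe. A Cnnm4 probe 1896 bases upstream stood well above background on 1 CPE array and 2 reference arrays and was not tested. Cnnm1 had means of -0.71 and -0.87 at its probes, both lower at an adjusted p under 0.05 and under 2-fold. The first probe stood well above background in CPE on 2 arrays and the other on 1, so their CPE signal was near the background. With the scanner software's log ratio both passed the 2-fold limit, at -1.65 (adjusted p = 0.0442) and -2.15 (adjusted p = 0.0163). After median centring they were at -0.81 (adjusted p = 0.0675) and -1.01 (adjusted p = 0.0244). Cnnm3 had ratios of 0.81, -0.39 and 0.22 at its brightest probe, with a mean of 0.22 ± 0.23. A probe 1502 bases downstream gave 1.01, 0.87 and 0.19, with a mean of 0.69 ± 0.20 (limma, adjusted p = 0.0269), higher but under 2-fold. With the scanner software's log ratio that probe passed the 2-fold limit, at 1.16 (adjusted p = 0.0408). After median centring it was at 0.49 (adjusted p = 0.257).

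Of 3 tested Slc41 probes, none passed the limma test, and none had an unadjusted p under 0.05. Slc41a1, a magnesium exporter of the plasma membrane, had a mean log2 ratio of -0.21 ± 0.15 (SE), Slc41a2 of 0.07 ± 0.16, and Slc41a3, known from mitochondria, of -0.04 ± 0.15. All had ranks in the moderate class, from 70.5 to 84.9.

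Where a gene had tested probes at least 100 bases apart on its own strand, their ratios were compared between the ends of the gene. This was possible for 10 genes. The 5′ probe minus the 3′ probe was lowest in mouse 2 for 6 genes, in mouse 3 for 3 and in mouse 1 for 1, and its median over the genes was 0.076, -0.45 and 0.00089 in mice 1, 2 and 3. In mouse 2 the difference reached -2.38 for Slc30a9, -1.71 for Mtf2 and -1.25 for Cnnm3, where the other mice lay between -0.20 and 0.42. Mouse 2 also had the fewest CPE probes above background. Some of the Mtf2 and Slc30a9 values above come from such 5′ probes, and whether probe position had a part in their mouse 2 values was not tested. The brightest probes of Mt1, Slc39a13 and Slc39a8 were the most 3′ ones of those genes, and Mt2, Mt3, Cnnm2 and Slc30a4 had 1 probe each.

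**Figure D4:**
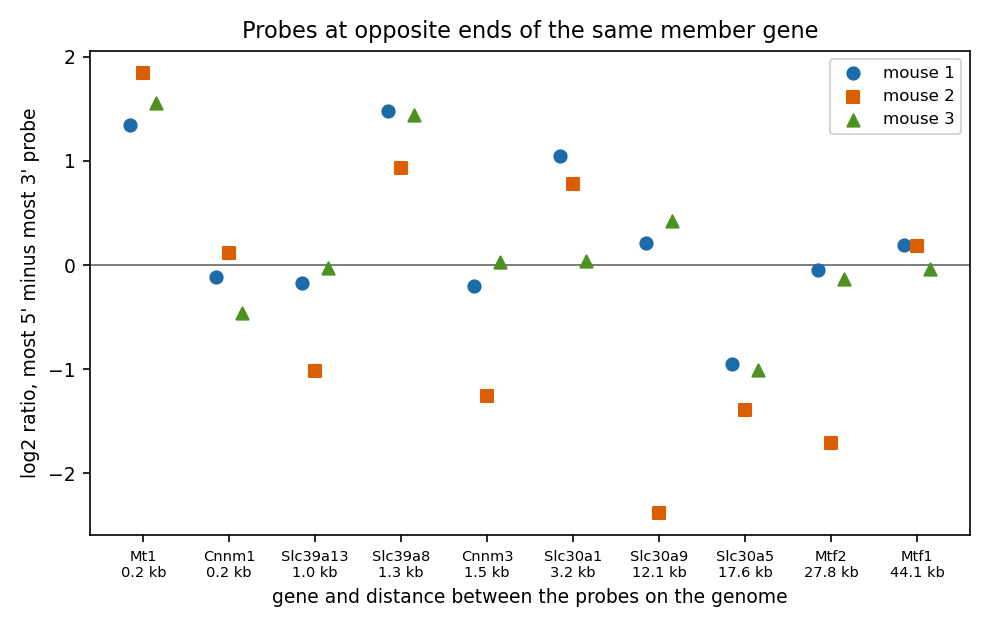
Log2 ratio of the most 5′ tested probe minus that of the most 3′ tested probe (y axis) in the 3 mice for the 10 member genes with such probes, ordered along x by their distance on the genome. Mouse 2 was the lowest of the mice for 6 genes and stood furthest from the others for Slc30a9, at -2.38.

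Other genes of zinc handling and of magnesium handling were counted from lists. Of 16 tested zinc genes outside the families above, 2 were higher and 2 were lower, where 7.09% and 10.2% of all tested probes were. The other 12 did not pass the threshold, some of them at an adjusted p under 0.05 but under 2-fold. The median log2 ratio of these zinc genes was 0.14. Mcoln1, an ion channel of lysosomes, was higher at 1.52 ± 0.18 (SE, adjusted p = 0.000615), with 1.39, 1.91 and 1.26 in the mice, and Hmox1 has been given above. S100a9, a zinc-binding protein of neutrophils, was lower at -2.04 ± 0.21 (adjusted p = 0.000355). Gclc, an enzyme of glutathione synthesis, was lower at -1.05 ± 0.20 (adjusted p = 0.00501), with -1.55 in mouse 2.

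Of 13 tested magnesium genes, 1 was higher and 1 was lower, beside the same 7.09% and 10.2% of all tested probes. The other 11 did not pass the threshold, some of them at an adjusted p under 0.05 but under 2-fold. The median log2 ratio of these magnesium genes was 0.075. Tusc3, a subunit of oligosaccharyltransferase linked to magnesium uptake, was higher at 1.43 ± 0.19 (SE, adjusted p = 0.00106), and it ranked at 98.4 in CPE. Egfr, the growth factor receptor through which EGF acts on renal magnesium transport, was lower at -1.14 ± 0.17 (adjusted p = 0.00201). Trpm7, a channel for both ions, ranked at 89.8 and had a log2 ratio of 0.66, under 2-fold.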

How the data were processed

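The authors laser dissected CPE from 3 mice, amplified its RNA and hybridised it with a common reference. The deposited scanner files hold, per the file headers, spot intensity in both channels, made with Feature Extraction 9.5.3.1, and a log10 ratio of processed signals. The deposited series table holds log2 levels of the CPE channel, which the authors had normalized with Aquantile in R 2.14.0. Its background correction is not given in the sources used here, so it served as an alternative.

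Spots of 1 probe were averaged after control and outlier spots were left out. Classes followed the study's methods: log2 mean red intensity, Aquantile, mean of mice. Ratios were made with normexp (offset 50) and loess and tested in limma 3.58.1 (R 4.3.3) with an intercept, with Benjamini-Hochberg adjustment over all 25841 tested probes. Accessions of 50 member probes matched RefSeq genes, none to another symbol. Coordinates are mm8, for which an annotation was not used here, so exons are not given, and no probe, protein or transcript sequence was used.

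All member genes are accounted for. Values per mouse are given for genes past the threshold or in the high class, for Mt and Mtf genes, and where 1 array decided. Genes outside the families are named from the zinc and magnesium lists when past the threshold. Trpm7, Nr3c1, Fkbp5, Tsc22d3 and the stress genes were named after their values were seen. The members and lists were chosen with earlier results of these data known. The number of mice, 3, limits the precision of every value. Alternatives were another background correction, normalization, probe filter, array weights, and leaving out each mouse.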

Additional observations from a re-analysis of the deposited data

How the results depend on the processing

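The count of member probes past the threshold was 10, and it was 19 after median centring and 16 with the scanner software's log ratio. The count higher in CPE was 5, and 15 after median centring. The count lower was 5, and 10 with the scanner software's log ratio. Leaving out 1 mouse gave 9 to 12 in all, 4 to 5 higher and 5 to 7 lower. The high class held 10 member probes, 5 when ranked among probes above background, and 10 to 11 without 1 mouse. Of 392 log2 ratios, 346 kept their direction and side of the threshold, 21 passed it newly, 6 no longer passed and 19 changed sign, none of them of a probe past the threshold. The cause of these changes was not tested. Mtf2 lost the call of its brightest probe with no background correction (-0.92), after median centring (-0.48), with array weights (-0.90) and without mouse 2 (-0.67).

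Sign changes after median centring gave Slc39a3 0.085, Slc39a6 0.38, Slc39a11 0.14, Slc30a1 0.47, Mtf2 (its most 3′ probe) 0.21, Slc41a1 0.31 and Slc41a3 0.21. With the scanner software's log ratio, Slc30a1 was 0.017, Slc30a9 (its most 5′ probe) -0.098 and Slc41a3 0.15. With no background correction Slc39a3 was 0.012 and that Slc30a9 probe -0.0013, and with array weights Slc39a3 was 0.022. Without 1 mouse at a time, Slc39a3 ranged from -0.13 to 0.11, Slc30a1 from -0.25 to 0.020, Slc41a2 from -0.026 to 0.14, Cnnm3 (its brightest probe) from -0.084 to 0.52, and that Slc30a9 probe from -0.42 to 0.69.

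No paired analysis was possible because the 3 arrays form 1 group. Probes dim on these arrays, 17 of 61, could not be tested, so no statement is made on their ratio.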
